A study of Mus musculus with 75 samples.

Results

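The 10 transcription factor genes that mark medium spiny neurons or direct their development (Foxp1, Foxp2, Bcl11b, Meis2, Isl1, Ebf1, Six3, Sp9, Rarb and Ikzf1) were described across the 8 groups of a nuclear RNA study of the mouse nucleus accumbens. They were taken by symbol, and each of the 10 matched 1 of the 55401 gene identifiers in the raw counts. All 10 passed the filter on low counts. The nuclei came from male mice bearing D1-Cre or D2-Cre and an allele that tags ribosomal protein L10a with eGFP once Cre acts (LSL-eGFP::L10a), and were sorted by fluorescence. The mice of either line received saline or 20 mg/kg cocaine on each of 10 days and then spent 30 days in the home cage. They were given 1 challenge of saline or cocaine and were killed 1 h later. In the group names the first S or C stands for the repeated saline or cocaine and the second for the challenge. Library numbers were 10 for D1_SS, 9 for D1_SC, 8 for D1_CS, 10 for D1_CC, 9 for D2_SS, 9 for D2_SC, 10 for D2_CS and 10 for D2_CC.

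All groups share the tagging allele and the sort, so no group holds unsorted or untagged nuclei, and the age of the mice is not given in the sources used here. Cre was driven by a receptor gene, and as background the D2 receptor is also made by cholinergic interneurons, so a D2-Cre sort can hold them. Nothing in the labels says whether a library came from 1 mouse or from several, so p-values measure the spread between libraries. In these bulk samples fewer nuclei of a type and less RNA per nucleus cannot be told apart.

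Medium spiny neurons are the inhibitory projection neurons of the striatum, and they divide into a direct-pathway type with D1 receptors and an indirect-pathway type with D2 receptors. Both types arise from progenitors of the lateral ganglionic eminence, and their identity is set by transcription factors that stay on in the adult in part. Isl1 (a LIM homeodomain factor) and Ebf1 (a helix-loop-helix factor) are known for D1 neurons. Sp9 (a zinc finger factor of the Sp family) and Six3 (a homeodomain factor of the sine oculis family) are known for D2 neurons. Foxp1 and Foxp2 (forkhead repressors), Bcl11b (the zinc finger factor also called Ctip2), Meis2 (a TALE homeodomain factor) and Rarb (a retinoic acid receptor) are known in both, with Foxp2 stronger in D1 neurons. Ikzf1 (Ikaros) acts in late-born D2 neurons and is better known in blood cells and microglia.

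The promoters of Isl1, Sp9 and Six3 are shown because these members passed a test between the lines, with values given further on. Windows of the 250 bases before a RefSeq start (build GRCm38.p6) were found for 9 of the 10 members, with 13 windows in all. Foxp2 had none. Capitals mark matches, on either strand, to the CCAAT box (CCAAT), the GC box (GGGCGG), a homeodomain core (TAATTA), a Meis core (TGACAG) and a forkhead core (TGTTTA). Isl1 lies on chromosome 13 (minus strand, chr13:116309689-116309938), Sp9 on chromosome 2 (plus strand, chr2:73271676-73271925) and Six3 on chromosome 17 (plus strand, chr17:85620584-85620833).
Isl1: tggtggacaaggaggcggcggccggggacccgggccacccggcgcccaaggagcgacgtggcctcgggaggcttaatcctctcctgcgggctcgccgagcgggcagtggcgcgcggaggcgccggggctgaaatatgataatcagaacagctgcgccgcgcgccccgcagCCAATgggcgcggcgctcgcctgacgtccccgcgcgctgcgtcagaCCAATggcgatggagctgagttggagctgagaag
Sp9: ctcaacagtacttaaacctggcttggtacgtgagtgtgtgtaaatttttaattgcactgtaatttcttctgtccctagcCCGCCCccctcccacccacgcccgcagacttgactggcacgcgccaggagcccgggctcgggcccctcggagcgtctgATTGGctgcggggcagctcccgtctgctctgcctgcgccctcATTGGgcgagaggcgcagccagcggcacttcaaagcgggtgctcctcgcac
Six3: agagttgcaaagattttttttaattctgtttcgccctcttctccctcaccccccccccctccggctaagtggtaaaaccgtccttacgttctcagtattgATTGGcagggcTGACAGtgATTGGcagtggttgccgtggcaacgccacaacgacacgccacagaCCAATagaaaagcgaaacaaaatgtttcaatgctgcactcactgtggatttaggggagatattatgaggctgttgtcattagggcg

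The Isl1 window held 2 CCAAT boxes, at positions -80 and -34, where -1 is the base before the start. The Sp9 window held 2 CCAAT boxes on the reverse strand at -93 and -51, and 1 GC box on the reverse strand at -171. The Six3 window held 3 CCAAT boxes, at -150 and -131 on the reverse strand and at -86 on the forward strand, and 1 Meis core at -139. No 2 matches overlapped. Of 32817 windows of this length in the table, 33.8% held a CCAAT box, 32.7% a GC box, 15.9% a Meis core, 12% a forkhead core and 4.85% a homeodomain core. The Isl1 window was 71.2% G or C, the Sp9 window 62.4% and the Six3 window 48.8%, beside a median of 52.4% over the windows. A match is a string of letters and not evidence of binding.

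Total counts ran from 19825 to 34870414 per library, with a median of 14893119, and 4 libraries held under 1000000. Levels are given as CPM, counts scaled to 1000000 per library, in the 71 libraries above that number, while the tests used all 75. Reads also lay on 1738 olfactory and vomeronasal receptor genes, which neurons of this tissue leave silent. Their density, applied to the summed length of all genes, was equal to between 4.03% and 71.5% of a library's counts, and is called the background. It averaged 24.3% ± 19.0 (SD) in the D1_SC libraries and between 34.5% and 57.1% in the other 7 groups. In 4 D1 libraries (D1_CC 4, 9 and 10 and D1_CS 4), reads beside the receptor genes went against the line label. Drd2 exceeded Drd1 in 16 of the 37 D1 libraries. Of the D1 and D2 marker lists, 5 of 7 D1 genes were higher and 5 of 6 D2 genes were lower in the D1 line. Drd1 differed by 1.73 ± 0.26 (log2, SE) and Drd2 by -3.23 ± 0.28 (D1 minus D2; both passed the edgeR test).

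The members lay at very different heights above this background. Meis2 was the most dense, with a median of 6.89 times the background density over the 71 libraries, followed by Bcl11b at 4.54, Rarb at 4.33 and Six3 at 4.18. Foxp1 at 2.88, Isl1 at 2.83, Foxp2 at 2.75 and Sp9 at 2.64 formed a middle group. Ebf1 at 1.48 and Ikzf1 at 1.29 stood close to the density of silent genes. Ikzf1 was at or under the background density in 4 of 71 libraries, Sp9 in 5, and Ebf1 and Isl1 in 1 each.

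**Figure D1:**
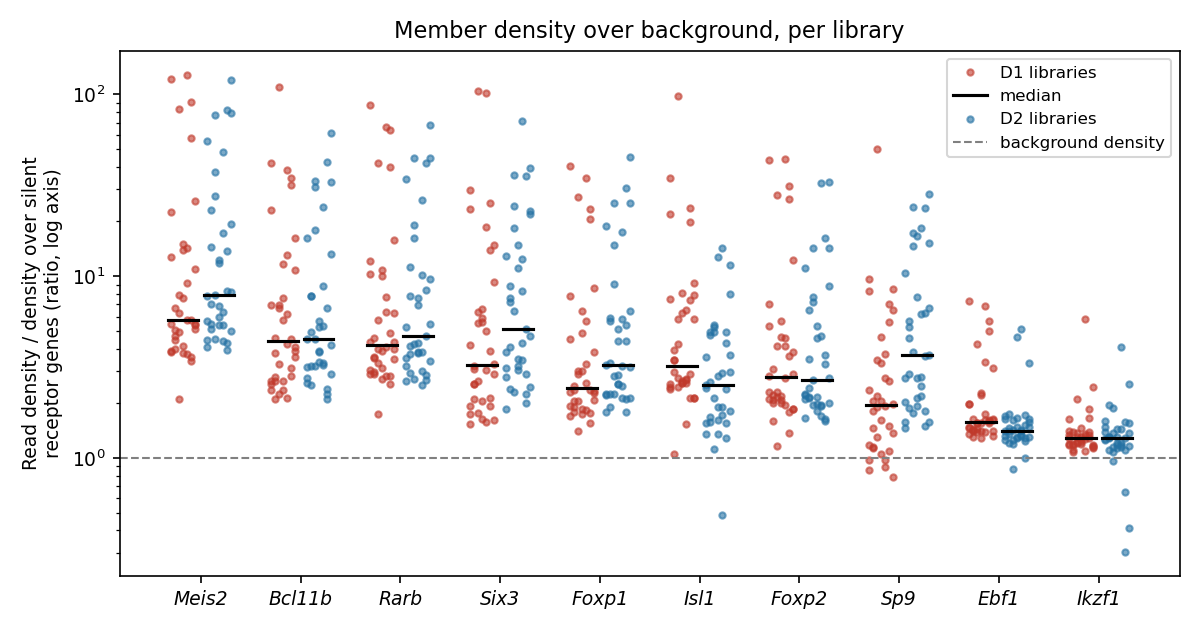
Density of reads on each member divided by the density on silent receptor genes of the same library (ratio, log axis), with 1 point per library (36 D1 and 35 D2 libraries over 1000000 counts) and a bar at the median of each line. Meis2 had the highest medians, and most Ikzf1 and Ebf1 points lie within a narrow band just above the background density.

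Per kilobase of gene span, introns included, the mean levels were 2.90 ± 1.22 CPM per kb for Meis2, 1.84 ± 0.70 for Rarb, 1.73 ± 0.58 for Bcl11b and 1.72 ± 0.95 for Six3 (SD, n = 71 libraries). They were 1.13 ± 0.33 for Foxp1, 1.11 ± 0.61 for Isl1, 1.05 ± 0.33 for Foxp2 and 0.98 ± 0.53 for Sp9. Ebf1 at 0.50 ± 0.19 and Ikzf1 at 0.41 ± 0.19 were the least dense. In this order no gene differed from the next by more than the larger of their SDs. The gene spans, from GENCODE M21 on mm10, ran from 11409 bases for Isl1 on chromosome 13 (116298281 to 116309689) to 597384 bases for Foxp1 on chromosome 6 (98925338 to 99522721), both on the minus strand. The other spans were Foxp2 on chromosome 6 (14901349 to 15441977, plus strand), Bcl11b on chromosome 12 (107910403 to 108003602, minus strand), Meis2 on chromosome 2 (115863064 to 116065839, minus strand), Ebf1 on chromosome 11 (44617317 to 45008091, plus strand). They were also Six3 on chromosome 17 (85613608 to 85629302, plus strand), Sp9 on chromosome 2 (73271925 to 73284706, plus strand), Rarb on chromosome 14 (16430839 to 16819156, minus strand) and Ikzf1 on chromosome 11 (11685003 to 11772926, plus strand). The spans of Isl1, Sp9 (12782 bases) and Six3 (15695 bases) are short, and Isl1 and Sp9 had as few as 4 counts among the 71 libraries and 0 in the smallest of the 75. The strand setting of the counting is not given, so reads of genes that overlap a member (Six3os1 for Six3, Cir1 for Sp9, Top2b for Rarb) cannot be separated from it.

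The level of most members followed the background share of their library. Both measures are shares of the same library total. A gene near the background density can therefore rise with that share, and a denser gene fall, through this alone, which was not tested. The resamples below also ignored line and group, so their p-values do not test a relation beyond this. Across the 71 libraries Pearson's r between log2 CPM and background share was -0.82 for Meis2 (Spearman's rho -0.81), -0.65 for Rarb (rho -0.59), -0.65 for Bcl11b (rho -0.69), -0.64 for Foxp1 (rho -0.58), -0.63 for Six3 (rho -0.70) and -0.59 for Foxp2 (rho -0.48). It was positive for Ikzf1 at 0.84 (rho 0.94) and for Ebf1 at 0.78 (rho 0.85). For each of these 8 the two-sided permutation p of r was 1.0e-05, the smallest that 100000 resamples can give (1.2e-05 after adjustment over the 10 members). The permutation p of rho was also 1.0e-05 (1.4e-05 adjusted), or 3.0e-05 for Foxp2 (3.7e-05 adjusted). For Isl1 the test was not passed (r 0.13, permutation p = 0.284, adjusted 0.284; rho 0.01, permutation p = 0.959, adjusted 0.959). For Sp9 r was -0.22 (permutation p = 0.0603, adjusted 0.067) and rho -0.40 (permutation p = 6.3e-04, adjusted 7.0e-04).

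Without the 2 libraries farthest from the median background, the 8 values of r above lay from -0.84 for Meis2 to 0.85 for Ikzf1. The r of Isl1 was then 0.15 and that of Sp9 -0.19. Within the lines, Meis2 gave -0.84 in D1 and -0.80 in D2, and Ikzf1 0.91 and 0.79. Sp9 gave 0.04 in D1 and -0.58 in D2.

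**Figure D2:**
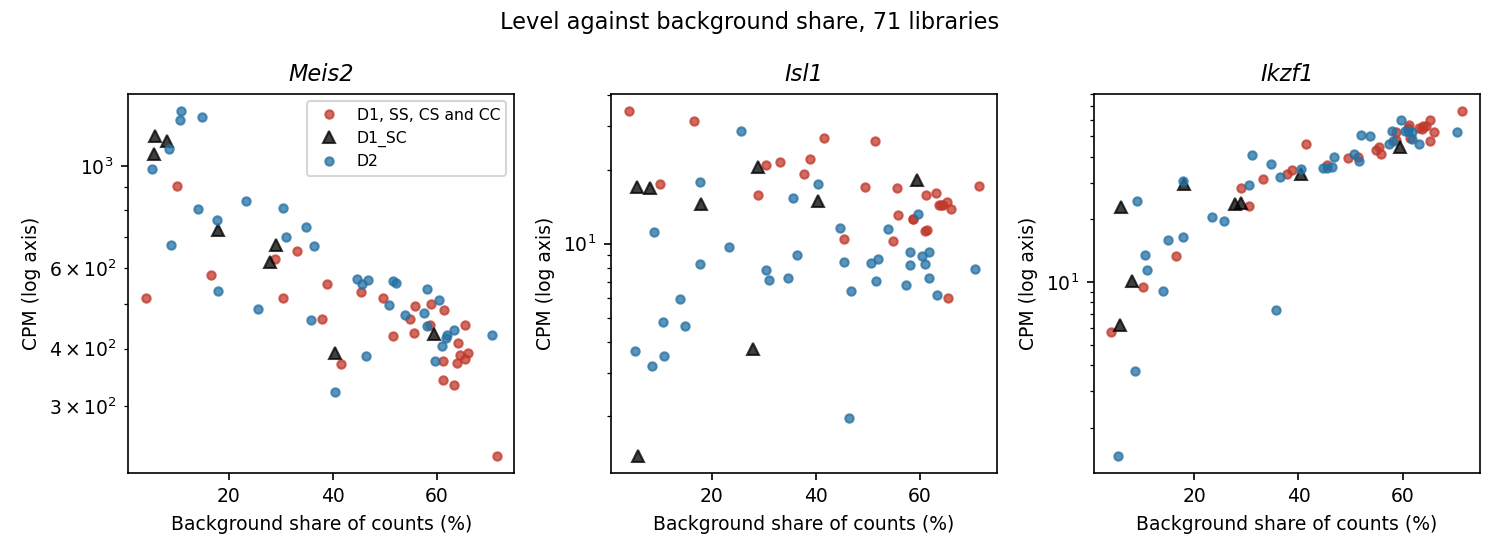
CPM (log axis) of Meis2, Isl1 and Ikzf1 against the background share of the library (percent), with 1 point per library and the 8 D1_SC libraries as black triangles. Meis2 falls and Ikzf1 climbs with the background (r -0.82 and 0.84), Isl1 is spread over all background shares (r 0.13), and several D1_SC libraries lie at the low end of the background.

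Which members separate the 2 neuron types was asked first. Averaged over the 4 treatments, Isl1 was higher and Sp9 was lower in the D1 line, and these were the only 2 of the 10 members that passed the test. In this comparison 0.204% of the 39250 genes tested differed (80 genes, 22 higher and 58 lower in D1). With RLE scaling the split of the genes that passed was 47 higher and 31 lower. The median change of the 10 members was -0.08, beside 0.00 over all genes, and 4 members had a positive and 6 a negative value.

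Isl1 ran from 11.3 to 26.8 CPM in D1_SS (median 18.1), from 1.38 to 20.5 in D1_SC (15.8), from 10.3 to 17.5 in D1_CS (14.6) and from 6.0 to 34.6 in D1_CC (15.2). In the D2 line it ran from 3.7 to 17.4 in SS (8.3), from 2.0 to 28.7 in SC (7.1), from 6.0 to 17.9 in CS (10.1) and from 4.6 to 9.7 in CC (7.9). Every D1 median was above every D2 median, the ranges overlapped in each treatment, and 33 of 36 D1 libraries were above the D2 mean. Over the lines Isl1 averaged 16.2 ± 6.7 CPM in D1 (SD, n = 36) and 9.0 ± 5.0 in D2 (n = 35). The difference was 0.94 ± 0.23 (log2, SE), with an edgeR adjusted p of 0.0490. Without the 4 libraries that go against their label it was 1.04 ± 0.23 (adjusted p = 0.0251).

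The Isl1 call lay at the edge of the threshold. Leaving out 1 library at a time, with the gene filter and dispersion kept from all 75 libraries, gave edgeR adjusted p values from 0.00732 to 0.134. Of these 75 fits 18 passed, and the log2 difference stayed between 0.74 (without D1_SC 5) and 1.07 (without D2_SC 1). It passed with the background density as a covariate (0.73 ± 0.16, adjusted p = 0.00979) and without the 14 libraries that failed a quality rule (1.00 ± 0.15, adjusted p = 2.87e-05). It missed the threshold with no filter on low counts (adjusted p = 0.0588), without libraries under 1000000 counts (0.0872) and with the replicate block (0.0923). Isl1 also marks cholinergic interneurons. Of 5 cholinergic markers, 1 differed: Slc5a7, the choline transporter, was lower in D1 by 0.56 ± 0.14 (edgeR adjusted p = 0.0475), while Chat differed by -0.05 ± 0.12. Their summed level ran from 5.2 to 76.2 CPM in D1 and from 20.0 to 76.8 in D2, at median densities of 1.3 times the background in both. Slc18a3 was at 0 in 1 D1 and 4 D2 libraries and Gbx2 in 2 and 6. Their part in the Isl1 result was not tested.

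Sp9 ran from 4.7 to 12.8 CPM in D1_SS (median 8.2), from 1.1 to 14.9 in D1_SC (6.2), from 5.7 to 10.7 in D1_CS (8.1) and from 5.3 to 20.5 in D1_CC (12). In D2 it ran from 10.9 to 18 in SS (14.7), from 8.3 to 41.9 in SC (14.7), from 11.0 to 33.0 in CS (14.0) and from 8.8 to 25.4 in CC (13). The CS groups did not overlap, and in CC the D1 and D2 ranges overlapped over most of their length. Sp9 averaged 9.2 ± 4.5 CPM in D1 (SD, n = 36) and 15.9 ± 7.0 in D2 (n = 35), and 3 of 36 D1 libraries exceeded the D2 mean. The difference was -1.04 ± 0.18 (log2, SE; edgeR adjusted p = 0.000399). It passed in all 75 fits that left out 1 library, which kept the gene filter and dispersion as for Isl1. Without the 4 libraries against their label it was -1.05 ± 0.20 (edgeR adjusted p = 0.00141). With background reads subtracted it was -1.33 ± 0.35 and missed the threshold (adjusted p = 0.0526).

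**Figure D3:**
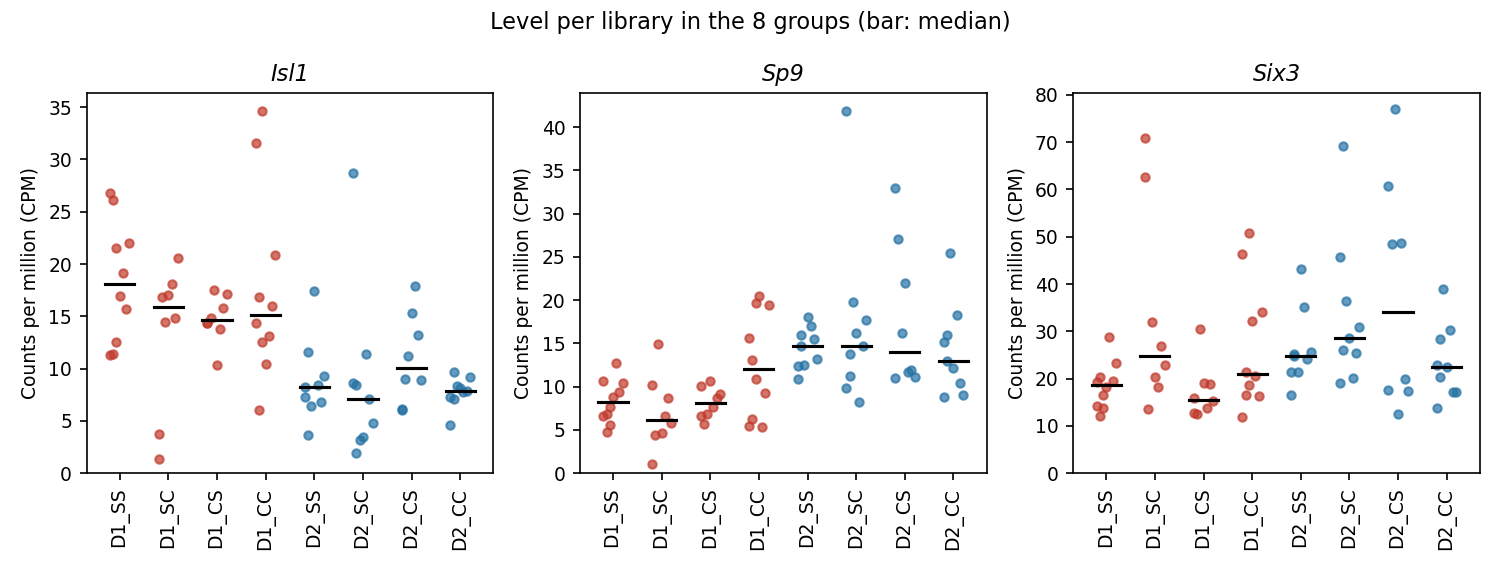
CPM of Isl1, Sp9 and Six3 in each library over 1000000 counts (1 point each, D1 groups in red and D2 groups in blue), with a bar at the group median. The D1 medians of Isl1 (14.6 to 18.1 CPM) lie above those of D2 (7.1 to 10.1), and the D1 medians of Sp9 (6.2 to 12) lie below those of D2 (13 to 14.7).

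The other 8 members did not pass. Ebf1, the other factor known for D1 neurons, ran from 50.8 to 315 CPM in D1 and from 24.8 to 354 in D2, with medians of 231 and 179, and differed by 0.25 ± 0.13 (95% interval -0.01 to 0.50). With background reads subtracted the Ebf1 difference was 0.70 ± 0.26 (edgeR adjusted p = 0.344). Six3, the other D2 factor, ran from 11.9 to 71 CPM in D1 and from 12.4 to 77.0 in D2 (medians 19.1 and 25.1), and differed by -0.34 ± 0.21 (-0.75 to 0.07). Foxp2 had a median of 542 CPM in D1 and 508 in D2 and differed by 0.12 ± 0.16 (-0.19 to 0.44). In limma with library weights Foxp2 passed, higher in D1 by 0.28 ± 0.08 (adjusted p = 0.0165). Foxp1 had medians of 567 and 673 CPM and differed by -0.36 ± 0.15 (-0.66 to -0.06), and Meis2 had 475 and 554 and differed by -0.37 ± 0.18 (-0.73 to -0.01). Both had an unadjusted p under 0.05 but an edgeR adjusted p of 0.65 and 0.81. Bcl11b (157 and 146 CPM), Rarb (599 and 662) and Ikzf1 (40.5 and 35.8) differed by -0.02 ± 0.17, -0.14 ± 0.17 and 0.04 ± 0.14.

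With the background density as a covariate the standard errors of these genes shrank and 2 more members passed. Foxp1 then gave -0.30 ± 0.07 (D1 minus D2, log2; edgeR adjusted p = 0.0205), and Meis2 gave -0.28 ± 0.08 (adjusted p = 0.0484). In that fit 606 of the 39281 genes tested passed, beside 80 of 39250 without the covariate. Of the 606 genes 553 were lower in D1, the direction of Foxp1 and Meis2.

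**Figure D4:**
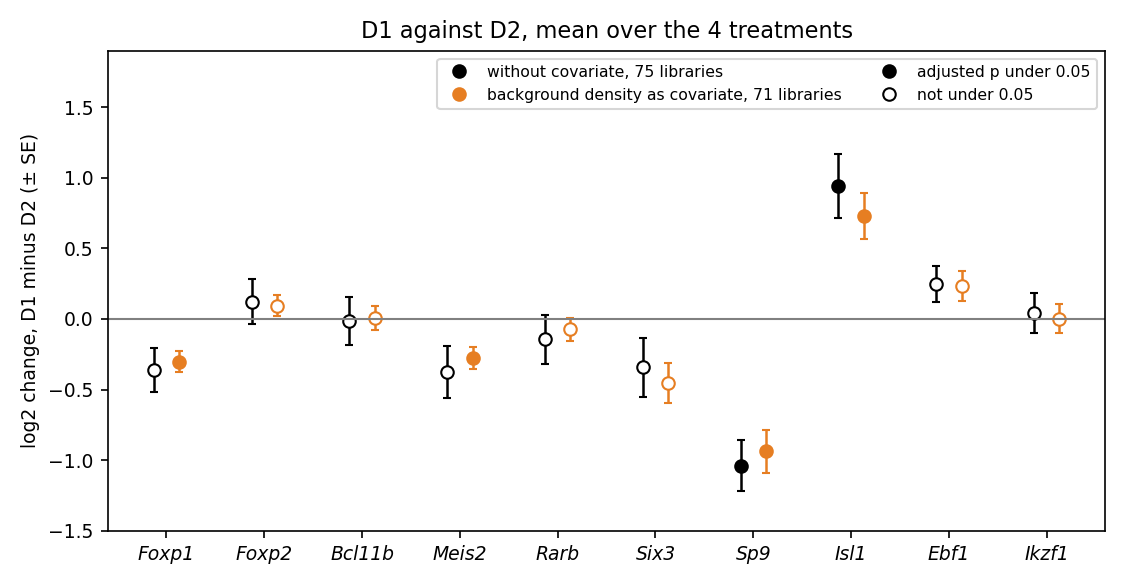
Log2 change of each member between the lines (D1 minus D2, mean over treatments; bars are ± SE), without a covariate (black, 75 libraries) and with the background density as a covariate (orange, 71 libraries). Filled points passed the threshold: Isl1 at 0.94 and Sp9 at -1.04 in black, and Isl1, Sp9, Foxp1 and Meis2 in orange.

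The lines were also compared within each treatment. After saline throughout (SS) 0.0255% of the genes passed and no member did; 2 members had an unadjusted edgeR p under 0.05, Isl1 at 0.96 ± 0.44 and Sp9 at -0.94 ± 0.35. After a first cocaine challenge (SC) 1.17% of the genes passed, 0.408% lower in D1, and among the members Sp9 was lower in D1, at -1.38 ± 0.38 (edgeR adjusted p = 0.0434). Isl1 stood at 1.66 ± 0.47 in SC (adjusted p = 0.0562). The Sp9 call in SC was lost in 10 of the 75 fits without 1 library, among them D2_SC 1 (adjusted p = 0.175) and D1_SC 5 (0.0844), and without the libraries against their label, all of which are in D1_CC or D1_CS.

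In withdrawal (CS) 3.59% of the genes passed, and 3.55% were lower in D1. Sp9 at -1.72 ± 0.39 (edgeR adjusted p = 0.00540) and Six3 at -1.53 ± 0.45 (adjusted p = 0.0355) were lower in D1. Six3 ran from 12.4 to 30.6 CPM in D1_CS (median 15.5) and from 12.4 to 77.0 in D2_CS (34.2), so the ranges overlapped, with 4 D2 libraries above all D1 libraries. Neither gene passed with RLE scaling (adjusted p of 0.0587 for Sp9 and 0.157 for Six3), with background reads subtracted, with limma or once libraries failing the quality rule were dropped. Without the libraries against their label Sp9 passed (0.0104) and Six3 did not (0.0590). The Six3 call was lost in 10 of 75 fits without 1 library, with the highest adjusted p (0.152) without D2_CS 3. The D2_CS group also held a pair of libraries with 26297 and 19980 counts, which the tests use and the CPM ranges do not. Isl1 in CS gave -0.26 ± 0.49, with 7 of 8 D1 libraries above the D2 mean of CPM. Its direction was not stable: the sign turned in 5 of 10 other settings, with 0.86 after subtraction of background reads, and the value was 0.05 without D2_CS 6, where 7 of the 26297 counts were on Isl1. After re-exposure (CC) 0.0204% passed and no member did, with Isl1 at 1.40 ± 0.44 (adjusted p = 0.181) and Sp9 at -0.12 ± 0.35. Whether the changes from SS differ between the lines was tested for SC, CS and CC, in which 0.0280%, 0.0892% and 0.00% of the genes passed. No member did in edgeR, DESeq2 or limma, and none had an unadjusted edgeR p under 0.05.

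What a first cocaine challenge does to the factors was asked next, within the D1 line (SC minus SS). Of the 10 members, 6 rose, namely Six3, Meis2, Foxp1, Rarb, Bcl11b and Foxp2. In this comparison 11.3% of the 37721 genes passed, and 9.70% did so with a rise. The median change of the members was 0.98, beside -0.07 over all genes.

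Meis2 ran from 341 to 652 CPM in D1_SS (median 493.1) and from 392.2 to 1164 in D1_SC (median 698). Its edgeR change was 1.35 ± 0.33 (log2, SE; adjusted p = 0.00771), and 6 of 8 D1_SC libraries were above the D1_SS mean. Foxp1 ran from 446 to 682 CPM (median 572) in D1_SS and from 558 to 1045 (789) in D1_SC, a change of 1.08 ± 0.25 (adjusted p = 0.00617). The upper part of each D1_SC range lay above all D1_SS libraries and the lower part inside their range.

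Six3 had 12 to 28.7 CPM in D1_SS (median 18.7) and 13.5 to 71 in D1_SC (24.8), a change of 1.73 ± 0.42 (edgeR adjusted p = 0.00691). Rarb had 514 to 1014 CPM (median 704) and 480 to 1530 (852), a change of 1.07 ± 0.31 (adjusted p = 0.0206). Bcl11b had 107 to 179 CPM (median 152) and 89.7 to 259 (201), a change of 1.01 ± 0.31 (adjusted p = 0.0291). The 2 groups overlapped for each of these genes. Foxp2 had 346 to 726 CPM (median 636) and 387 to 1064 (734), a change of 0.94 ± 0.30 (adjusted p = 0.0392), with 4 of 8 D1_SC libraries above the D1_SS mean.

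The fit also scales each library (TMM), and its changes are larger than those read from CPM. The scaling factors of D1_SC averaged 0.806 ± 0.235 (SD, n = 8) and those of D1_SS 1.14 ± 0.13 (n = 10). After that scaling the medians of Meis2 were 792 in D1_SC and 431 in D1_SS, and those of Foxp1 942 and 512. With RLE scaling the median of all genes was -0.25 and 5 of the 10 members rose. The 651445-count library D1_SC 5 adds to the fit and had 96.7 CPM of both Isl1 and Six3, from 63 counts each.

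The 4 remaining members had changes of 0.82 ± 0.47 for Isl1, 0.12 ± 0.34 for Sp9, 0.05 ± 0.20 for Ebf1 and -0.37 ± 0.23 for Ikzf1. Without D1_SC 5 the value of Isl1 was -0.07.

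The background differed between the same groups. D1_SC averaged 24.3% background against 46.2% ± 11.9 in D1_SS. With the background density as a covariate none of the 10 members passed, and 4 genes of all did. Meis2 then gave 0.10 ± 0.17, Foxp1 0.24 ± 0.14, Six3 0.34 ± 0.27 and Bcl11b 0.05 ± 0.19, and Foxp2 and Rarb changed sign (-0.13 ± 0.17 and -0.05 ± 0.18). With background reads subtracted none passed either, and the values were 0.53 ± 0.21 for Meis2, 0.63 ± 0.21 for Foxp1 and 0.96 ± 0.32 for Six3. No member rose in the fits without D1_SC 4 or without D1_SC 9, 1 rose without D1_SC 2 and 2 without D1_SC 5. Without D1_CS 5 or without D1_SS 3, 3 members rose. Without the libraries against their label 6 rose. D1_SC 2, 4 and 9 had 8.10%, 5.67% and 5.85% background.

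**Figure D5:**
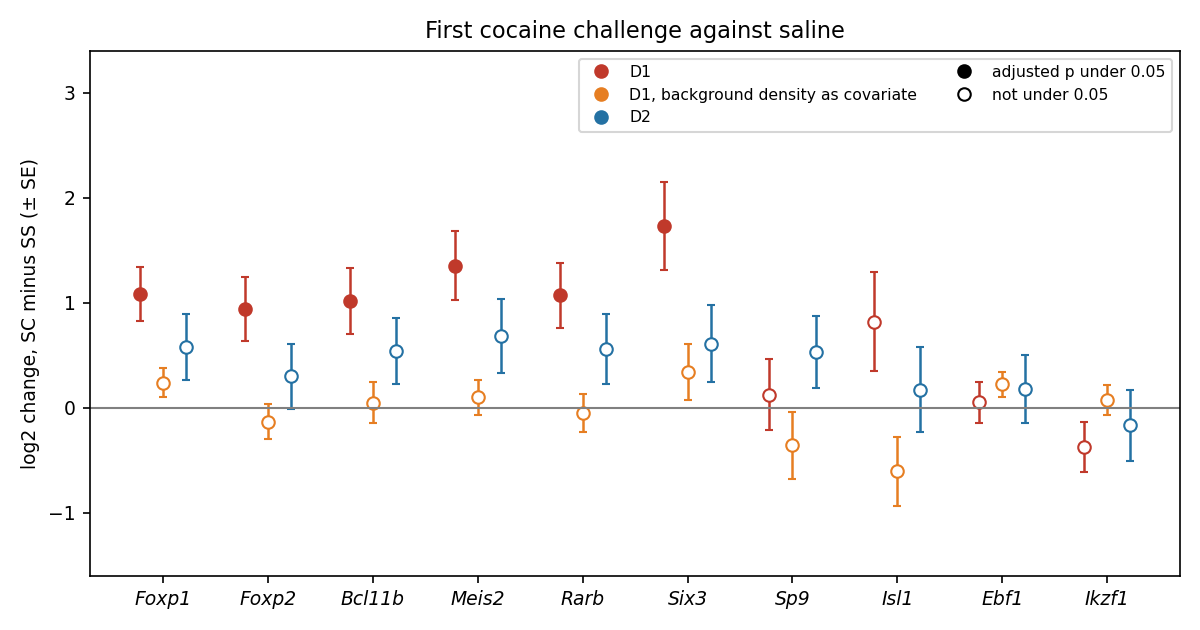
Log2 change (SC minus SS; bars are ± SE) of each member in D1 (red), in D1 with the background density as a covariate (orange) and in D2 (blue), with filled points for adjusted p under 0.05. The 6 filled red points lie from 0.94 to 1.73, and no orange or blue point is filled.

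Some other genes of the striatal programme and some markers of other cells also rose in this D1 comparison, in which 9.70% of all genes tested did. With the background density as a covariate only 4 genes of all passed, and with background reads subtracted 13 did. Of 18 further striatal transcription factors 4 rose, among them Pbx3 (1.09 ± 0.30) and Bcl11a (1.19 ± 0.33), with a list median of 0.53. Pbx3 is a partner of Meis factors, and Bcl11a is the close relative of Bcl11b. Of 10 genes shared by all medium spiny neurons 3 rose, Pde10a (1.35 ± 0.39), Rgs9 (1.14 ± 0.37) and Gnal (1.14 ± 0.38), which act in cyclic nucleotide and G protein signalling. None of 13 retinoic acid genes passed, and their median was 0.34.

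All 6 oligodendrocyte markers rose too, among them Mobp by 1.69 ± 0.41 and Mbp by 0.84 ± 0.19, and their summed level ran from 99.5 to 811 CPM in D1_SC and from 137 to 249 in D1_SS. Of the D2 markers Drd2 (1.56 ± 0.49) and Grik3 (0.67 ± 0.21) rose, out of 6. The summed D2 markers ran from 217 to 714 CPM in D1_SC and from 223 to 899 in D1_SS. Of 8 microglial markers P2ry12 rose (0.94 ± 0.25), and of 5 cortical markers Slc17a7 (1.57 ± 0.52), beside 9.70% of all genes. No D1, cholinergic, GABA interneuron, astrocyte or vascular marker passed. The part of these cells in the rise of the members was not tested.

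In the D2 line no member changed after the first challenge, in which 0.00% of the 36090 genes passed. The 10 values had a median of 0.53, beside -0.03 over all genes, with 9 above 0. Meis2 gave 0.68 ± 0.35 (95% interval -0.01 to 1.38), Six3 0.61 ± 0.37 and Foxp1 0.57 ± 0.31. No member had an unadjusted edgeR p under 0.05 there.

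Over the 4 treatments of the D1 line jointly, 18% of the genes and 6 of the 10 members differed, the 6 that rose in SC. Meis2 had the smallest edgeR adjusted p (0.00445). Without D1_SC 2 or 4 only 1 member differed, and without D1_SC 9 there were 3. In the D2 line 0.743% of the genes and no member did, with 1 member (Six3) at an unadjusted p under 0.05.

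The groups with cocaine history and a cocaine challenge (CC) were compared in 2 ways. CC and SC differ in the history before the same challenge, and CC and CS in the challenge after the same history. Between CC and SC in D1, which use the D1_SC libraries a second time, 10.5% of the genes passed and 7.86% were lower in CC. Of the members 4 fell, Rarb by -1.26 ± 0.31 (edgeR adjusted p = 0.00818), Meis2 by -1.21 ± 0.33 (0.0158), Foxp1 by -0.91 ± 0.25 (0.0189) and Foxp2 by -1.07 ± 0.31 (0.0213). Rarb ran from 480 to 677 CPM in D1_CC (median 579) and Meis2 from 333 to 578 (473), in or below the lower part of the D1_SC ranges given above. No D1_CC library exceeded the D1_SC mean for any of the 4. With the background density as a covariate none of the 4 passed: Rarb gave -0.30 ± 0.18 (edgeR adjusted p = 0.253), Foxp1 -0.22 ± 0.14 (0.264), Meis2 -0.20 ± 0.16 (0.435) and Foxp2 -0.16 ± 0.17 (0.553). In that fit 4269 of the 37843 genes tested passed. Among them were 2 other members, Sp9 at 0.98 ± 0.31 (0.0398) and Ebf1 at -0.36 ± 0.12 (0.0428). With background subtracted no member passed. Without the D1 libraries that go against their label 1 did. None fell without D1_SC 2, 4 or 9, and 1 did without D1_SC 5, D1_CS 5 or D1_SS 3.

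Between CC and CS in D1 8.31% of the genes passed, and no member did. Sp9 had 5.7 to 10.7 CPM in D1_CS and 5.3 to 20.5 in D1_CC and gave 0.99 ± 0.35 (edgeR adjusted p = 0.0707). In D1, CS minus SS, CC minus SS and the interaction of history with challenge each gave 0.00% of genes and no member; 0, 3 and 4 members had an unadjusted edgeR p under 0.05. In D2, 0.0859% of the genes passed for CS minus SS, 0.252% for CC minus CS and 0.00% for CC minus SS, for CC minus SC and for the interaction, with no member in any; 2, 2, 0, 1 and 3 members had an unadjusted edgeR p under 0.05. The lowest adjusted p of a member among these was 0.434, for Six3 in CC minus CS (-0.91 ± 0.37). Isl1 in D2 gave 0.90 ± 0.43 for CS minus SS and -1.04 ± 0.43 for CC minus CS.

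Some of the members also varied together from library to library. After line and log2 background density were taken out, Pearson's r over the 71 libraries was 0.92 between Meis2 and Rarb, 0.88 between Foxp1 and Meis2 and 0.84 between Foxp1 and Rarb, as descriptions without a test. Foxp2 had r of 0.59 with Rarb and 0.54 with Meis2. Over the 45 pairs r ran from -0.35 (Bcl11b and Ebf1) to 0.92, with a median of 0.02. Isl1 and Sp9, which differ in opposite directions between the lines, had r of 0.41. The points share their library, its depth and its composition.

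The genes most like each member by the same measure were sought among 12837 to 12849 genes of average log2 CPM of at least 3, outside the member's own neighbourhood. Meis2 was nearest to Celf2 (r 0.94) and Myt1l (0.93), Rarb to Celf2 (0.94) and Nkain2 (0.93), Foxp1 to Caln1 (0.89) and its fellow member Meis2 (0.88), and Foxp2 to Diaph2 (0.87) and Nrg3 (0.79). Bcl11b was nearest to Ppp2r2c (0.83) and Lrrn2 (0.82), and Six3 to Sez6l2 (0.83). Isl1 was nearest to Rnaseh2a (0.75) and Smim20 (0.75), and Sp9 to Aatk (0.78) and Tapbp (0.77). Ebf1 was nearest to Plcb4 (0.83) and Mast4 (0.82), and Ikzf1 to Plekhh1 (0.84) and Tgfb2 (0.83).

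Ikzf1 and Ebf1 were set beside the markers of other cells that express them. Microglial Csf1r had a median density of 1.71 times the background in D1 and 1.93 in D2, and Cx3cr1 1.29 and 1.24, beside 1.29 and 1.28 for Ikzf1. No microglial marker differed between the lines among 8. The vascular markers Flt1 and Pdgfrb stood at 1.44 and 1.74 in D1 and 1.54 and 1.82 in D2, beside 1.58 and 1.41 for Ebf1. Of 6 vascular markers Cldn5, a tight junction gene of endothelium, was lower in D1 (-1.34 ± 0.29, edgeR adjusted p = 0.0125). Its median density was at the background in both lines, 1.03 times in D1 and 1.05 in D2. It was at 0 in 2 D1 and 3 D2 libraries, and its highest density was 5.22 times the background in D1 and 61.7 in D2. Microglial markers summed to between 94.8 and 199 CPM in D1 and between 78.3 and 203 in D2.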

How the data were processed

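Nuclear RNA of 75 libraries was sequenced from a stranded total RNA kit, per the labels' protocols. The submitters' processing notes name featureCounts, DESeq2 and mm10 without versions or roles; for the aligner and the strand setting, the sources used here give nothing. The deposited raw counts per gene were the basis of every test. The authors' deposited FPKM values were used only to derive gene lengths, which equal the full gene span within 0.5 bases for 54743 of 55062 genes compared.

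The main test was that of edgeR 4.0.16 under R 4.3.3 (TMM scaling, filterByExpr by group, quasi-likelihood test, Benjamini-Hochberg adjustment over all genes tested, threshold 0.05). The lines were compared over all 75 libraries, and treatments within the 37 D1 or 38 D2 libraries. A standard error is the log2 change divided by the square root of F. CPM are counts scaled to 1000000 per library, shown for the 71 libraries over 1000000 counts. The background is the read density on 1738 receptor genes. A library failed the quality rule with a total under the line's median divided by 3, or a median correlation more than 4 scaled deviations low. Covariate and subtraction fits used the 71 libraries. DESeq2 1.42.0, limma 3.58.1 with library weights, RLE scaling, no filter, a replicate block and leaving out libraries were the alternatives. Where 1 library was left out of a comparison of the lines, the gene filter and dispersion stayed those of all 75 libraries. Fits within a line were rerun in full. On simulated counts the fit recovered 92% of log2 changes of 1 between the lines (38876 genes) and 27% for SC minus SS in D1 (37227 genes). The simulated libraries shared 1 expression profile and lacked the background differences of the real ones, so these rates may not hold for the data. No 2 libraries were identical, and 0 columns were unmapped.

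The members and lists were chosen with earlier results of these data known. All members are named; of other lists up to 3 genes with the smallest p that passed; and for each member the 2 genes most like it. A few genes that this rule names are not reported here.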

Additional observations from a re-analysis of the deposited data

Results flagged for a closer look

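In 17 of the 80 combinations of a member and a group, 1 library stood apart from the rest of its group by Dixon's 95% criterion, which chance alone meets in about 1 in 20 groups. They came from 6 libraries.

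Library D1_CS 3, with 10.1% background, had the highest level of 6 members in its group. Its CPM were 949 for Foxp1 (the next library had 588), 1110 for Foxp2 (next 626), 227 for Bcl11b (next 140), 904 for Meis2 (next 464), 1196 for Rarb (next 591) and 30.6 for Six3 (next 19.1). It had the lowest Ikzf1, 9.44 CPM (next 42.8).

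Library D2_CC 1 (14.8% background) was highest for Foxp1 at 1276 CPM (next 812), Meis2 at 1279 (next 841) and Rarb at 1502 (next 920). Library D2_SS 9 (5.29% background) was lowest for Ebf1 at 24.8 CPM (next 157) and Ikzf1 at 1.47 (next 34.9), and highest for Foxp2 at 717 (next 531).

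Library D2_SC 1 (25.7% background) was highest for both Isl1 at 28.7 CPM (next 11.4) and Sp9 at 41.9 (next 19.8). Library D2_CS 1 (14.0% background) was highest for Bcl11b at 308 CPM (next 169), and D2_CS 3 (8.96% background) for Foxp2 at 1210 (next 683).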

How the results depend on the processing

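The number of genes that differed between the lines (80) was 123 with DESeq2, 606 with the background covariate, 157 with background subtracted, 5232 with limma and 42 with the replicate block; leaving out 1 library gave 63 to 122 (122 without D1_CS 3). For SC minus SS in D1 (4277 genes) the numbers were 7900 with DESeq2, 4 with the covariate, 13 with background subtracted, 2736 with limma, 1880 with the replicate block, 1490 without libraries failing the quality rule and 1563 without D1_SC 5, the library under 1000000 counts. Leaving out 1 library gave 459 (D1_SC 2) to 10348 (D1_SC 6), with 511 without D1_SC 4, 777 without D1_SC 9, 1505 without D1_SS 3, 1509 without D1_CS 5, 6928 without D1_CC 3 and 7435 without D1_SC 7.

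Members that differed between the lines (2) numbered 4 with the covariate and 1 with background subtracted, no filter, the replicate block or no libraries under 1000000 counts, and 1 to 2 when 1 library was left out. In SC (1) they numbered 2 with DESeq2, 4 with limma and 0 with background subtracted, no filter, the replicate block, no libraries against their label or none under 1000000 counts, and 0 to 2 by leaving out 1. In CS (2) they numbered 0 with RLE scaling, background subtracted, limma or the quality rule, 1 without libraries against their label, and 1 to 4 by leaving out 1 (4 without D1_CS 3). In SS and CC together (0) DESeq2 gave 1 and limma 2. For the single treatments the share of all genes that passed under each setting is not given here, so these member counts lack that comparison. Averaged over treatments, limma called 5232 of the 39250 genes tested.

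For SC minus SS in D1 (6 members) the covariate and the subtraction gave 0, limma 2, the quality rule 1 and no libraries under 1000000 counts 2, with 0 to 6 by leaving out 1. With the covariate Foxp2 turned to -0.13 (adjusted p = 0.744) and Rarb to -0.050 (0.934); the cause was not tested. For CC minus SC (4) the covariate gave 2, the subtraction 0, limma 8, and no libraries against their label or none under 1000000 counts 1, with 0 to 5 by leaving out 1. Of all genes tested for CC minus SC, 3955 of 37721 passed in the main fit and 17029 of 37721 with limma. With the covariate 4269 of 37843 passed, and with the subtraction 902 of 28048. Without libraries against their label 1957 of 37688 passed, and without those under 1000000 counts 2160 of 37843. Over any treatment in D1 (6) the covariate, the subtraction and the quality rule gave 0, with 1 to 7 by leaving out 1. In the other D1 contrasts (0) DESeq2 gave 2, RLE scaling 1, limma 10 and no libraries under 1000000 counts 1, with 0 to 3 by leaving out 1 (3 without D1_CS 3). In the D2 contrasts and over any treatment in D2 (0) limma gave 1 each. For these contrasts, the other D1 contrasts and any treatment in D1, the share of all genes under each setting is not given here. Those member counts therefore cannot be set beside it. Changes compared between lines gave 0 in the 10 settings run; leaving out single libraries was not run for them.

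Replicate numbers showed no clear pairing of the samples. Over 251 pairs with the same number r ran from -0.91 to 0.80 (median 0.04). Over 2208 pairs with different numbers it ran from -0.90 to 0.91 (median 0.004). Of the 75 libraries, 7 correlated best with a library of their own number. Of 300 values of single members under settings other than leaving out 1 library, 229 stayed on the same side of the threshold, 61 no longer passed, 8 newly passed, and 2 that had passed turned in sign. Some values that had not passed also changed sign. Short genes limit the precision, with as few as 4 counts for Isl1 and Sp9 in the 71 libraries over 1000000 counts and 0 in the smallest libraries, which the tests include.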
